A study of Homo sapiens with 59 samples.

Results

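The block analysed here is the stretch of 3 Mb that starts at position 28500001 of chromosome 19 (hg38), in band 19q12, and holds the genes ZNF536 and CCNE1. Its members are all peaks that the deposited lists place inside these borders, 21667 peaks of 4391449 in the 51 lists, against 117097 on the rest of chromosome 19. A further 18 peaks crossed a border and were not counted as members. The stretch had been selected on measured values of these same lists, the peaks and input counts found there, so its coverage, its rank among other stretches, the marks on its promoters and its input density are a description with no test. The treatment comparisons were fitted over the whole genome, and it is not known whether they, too, were in view when the stretch was selected.

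The data are ChIP-Rx-seq peak lists of NCI-H661, an established human cell line from a lung large cell carcinoma metastasis that expresses the embryonic factors DPPA2 and DPPA4. In the knockdown experiment the lines shDPPA2, shDPPA4 and shDPPA2+4 received doxycycline (DOX, 2 µg/ml) or water (H2O) for 7 days, and H3K4me3, H3K27me3 and H2AK119ub were profiled in 2 replicates per line and treatment. These lines carry miR30-based hairpins behind a doxycycline-inducible promoter on PiggyBac transposons, and they are sorted bulk populations rather than clones. In the inhibitor experiment parental cells received A-485 (10 µM), which blocks the catalytic activity of the p300 and CBP acetyltransferases, or only the solvent DMSO for 1 day, and H3K27ac (2 replicates), H2AK119ub (2 replicates) and H3K27me3 (3 replicates) were profiled. SUZ12 was profiled in 1 DMSO library. A line with a control hairpin was not analysed here, so an effect of doxycycline itself and the effect of the knockdown cannot be told apart. The study calls its replicates biological, and the labels give only their numbers.

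H3K27me3 is laid down by the Polycomb repressive complex PRC2, of which SUZ12 is a core subunit, and H2AK119ub by the Polycomb complex PRC1. Both marks are known from wide domains over silent developmental genes, and a promoter that carries H3K27me3 together with H3K4me3, the mark of gene starts, is called bivalent. H3K27ac, made by p300 and CBP, is typical of active promoters and enhancers. The 19q12 stretch is known in oncology for CCNE1, the gene of cyclin E1, which is gained in several carcinomas.

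The block holds the starts of 9 protein-coding genes in GENCODE 44. From left to right these were UQCRFS1 (ENSG00000169021, chr19:29205320-29213151, minus strand), VSTM2B (ENSG00000187135, chr19:29525994-29564551, plus), POP4 (ENSG00000105171, chr19:29606283-29617237, plus), PLEKHF1 (ENSG00000166289, chr19:29665459-29675477, plus) and C19orf12 (ENSG00000131943, chr19:29698937-29715789, minus). They were followed by CCNE1 (ENSG00000105173, chr19:29811991-29824312, plus), URI1 (ENSG00000105176, chr19:29923644-30016612, plus), ZNF536 (ENSG00000198597, chr19:30224891-30713586, plus) and TSHZ3 (ENSG00000121297, chr19:31149979-31349436, minus).

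All 9 genes matched a RefSeq promoter (GRCh38.p14), defined as the 250 bases before and 50 after the start that RefSeq gives. The 6 promoters below are shown because the results turn on them, CCNE1 as an active promoter, ZNF536, TSHZ3 and VSTM2B as bivalent ones, and the pair of URI1 starts because only the second carried H3K4me3. They lie at chr19:29811741-29812040 (CCNE1), chr19:30225342-30225641 (ZNF536), chr19:31349387-31349686 (TSHZ3), chr19:29525168-29525467 (VSTM2B), chr19:29923407-29923706 and chr19:29941989-29942288 (URI1). Capitals mark each CG dinucleotide, and each sequence runs 5′ to 3′ on the gene's own strand.
CCNE1: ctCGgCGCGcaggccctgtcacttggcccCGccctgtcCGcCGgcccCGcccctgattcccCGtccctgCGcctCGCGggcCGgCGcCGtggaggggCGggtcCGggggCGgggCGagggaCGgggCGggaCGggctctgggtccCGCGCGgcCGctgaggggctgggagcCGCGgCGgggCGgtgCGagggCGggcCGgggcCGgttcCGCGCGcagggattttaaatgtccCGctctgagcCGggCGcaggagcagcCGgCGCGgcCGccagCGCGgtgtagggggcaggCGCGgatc
ZNF536: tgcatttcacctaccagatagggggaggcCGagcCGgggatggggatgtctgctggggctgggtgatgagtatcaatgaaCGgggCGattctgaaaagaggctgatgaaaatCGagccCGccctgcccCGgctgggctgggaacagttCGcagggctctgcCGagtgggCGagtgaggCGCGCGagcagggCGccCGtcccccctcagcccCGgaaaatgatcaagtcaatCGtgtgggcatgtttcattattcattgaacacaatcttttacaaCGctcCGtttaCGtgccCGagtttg
TSHZ3: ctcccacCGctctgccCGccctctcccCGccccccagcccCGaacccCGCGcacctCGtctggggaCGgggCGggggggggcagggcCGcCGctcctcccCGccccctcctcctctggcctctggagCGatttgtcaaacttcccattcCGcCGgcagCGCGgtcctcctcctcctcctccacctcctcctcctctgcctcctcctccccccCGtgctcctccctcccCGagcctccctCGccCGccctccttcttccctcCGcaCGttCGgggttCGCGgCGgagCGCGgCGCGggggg
VSTM2B: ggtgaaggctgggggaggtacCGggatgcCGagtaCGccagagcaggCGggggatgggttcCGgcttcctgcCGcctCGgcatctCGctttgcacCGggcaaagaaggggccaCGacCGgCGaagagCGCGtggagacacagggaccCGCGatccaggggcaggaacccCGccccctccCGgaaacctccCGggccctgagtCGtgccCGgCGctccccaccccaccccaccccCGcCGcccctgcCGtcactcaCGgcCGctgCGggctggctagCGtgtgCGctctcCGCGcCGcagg
URI1, first start: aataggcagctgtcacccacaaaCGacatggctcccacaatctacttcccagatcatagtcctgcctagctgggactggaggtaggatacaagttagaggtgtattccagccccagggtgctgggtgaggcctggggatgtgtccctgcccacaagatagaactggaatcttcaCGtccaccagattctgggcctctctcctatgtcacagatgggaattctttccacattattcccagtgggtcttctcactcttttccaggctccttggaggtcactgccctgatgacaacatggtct
URI1, second start: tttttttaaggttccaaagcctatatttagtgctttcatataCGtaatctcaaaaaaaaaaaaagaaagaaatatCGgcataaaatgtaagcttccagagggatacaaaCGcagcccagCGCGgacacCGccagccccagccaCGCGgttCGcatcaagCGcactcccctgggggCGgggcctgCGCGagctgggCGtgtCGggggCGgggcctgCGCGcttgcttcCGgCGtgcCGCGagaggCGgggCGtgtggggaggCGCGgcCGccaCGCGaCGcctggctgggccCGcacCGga

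The CCNE1 promoter held 47 CG dinucleotides and had a GC content of 81.0%. Of 34943 RefSeq promoters of the same length, 2.41% held as many, and the median was 14. The bivalent promoters were less dense, with 21 at ZNF536 (39.4% of promoters held as many), 31 at TSHZ3 and 33 at VSTM2B. At URI1 the first start held 2 (89.0% held as many) and the second held 32. The other promoters held 44 (PLEKHF1), 34 (C19orf12), 32 (UQCRFS1) and 23 (POP4). The values of active and bivalent promoters overlapped.

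Depth, given as ChIP reads in all peaks of a list, ranged over the lists of a mark from 8428795 to 19452145 for H3K4me3, 590598 to 12610644 for H3K27me3, 566116 to 5379670 for H2AK119ub and 780024 to 6502796 for H3K27ac, and was 535325 for SUZ12. Depth in this sense is not the total of reads sequenced, and it grows with the number and width of the called peaks. The deposited input counts showed 8 different inputs behind the 51 lists. Both H3K27ac libraries of replicate 4 had been called against the input of the other treatment. Whether the inputs or the labels of the ChIP libraries were exchanged was not settled, and if the labels were, the direction of every replicate 4 value of H3K27ac would turn. The 3 H2AK119ub DOX libraries of replicate 3 stood apart in coverage of the block, and the H3K27ac DMSO library of replicate 4 listed 592 peaks in the block against 75 to 161 in the other H3K27ac lists. H3K4me3 was read as a check of cell identity over the promoter window, 1500 bp on each side of a start, which was called marked where peaks covered at least 300 bp. It marked the promoters of 9 marker genes in all 12 lists, among them the epithelial genes EPCAM, KRT8, KRT18 and CDH1, the fibroblast collagens COL1A1 and COL1A2, the lung factor NKX2-1 and DPPA2 and DPPA4. It marked the leukocyte genes PTPRC and CD3E, the fibroblast gene DCN, the endothelial genes PECAM1 and CDH5 and the alveolar gene SFTPB in 0 of 12 lists.

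H3K27me3 covered a larger share of the block than of the rest of the chromosome in every list. Its peaks lay over 26.7%, 57.8% and 67.8% of the block (lowest, median and highest of 18 lists), against 1.39%, 4.97% and 6.79% of the rest of chromosome 19. The groups of values did not overlap. SUZ12 peaks covered 32.2% of the block and 1.52% of the rest of the chromosome in the single library. H2AK119ub peaks covered 12.95%, 28.6% and 66.0% of the block, against 2.62%, 7.98% and 15.0% of the rest, so that these values overlapped between lists, although the ratio of block to rest was above 1 in each list (1.77 to 8.48). These shares depend on the filter, and with peaks at a log2 fold over 2 the median share of the block was 24.7% for H3K27me3, 3.40% for H2AK119ub and 7.33% for SUZ12.

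The marks of active chromatin were not spread in this way. H3K4me3 peaks covered 1.73%, 1.84% and 2.20% of the block, against 6.21%, 6.63% and 7.57% of the rest of the chromosome, a ratio of 0.268 to 0.297. With A-485, H3K27ac peaks covered 2.15% and 5.57% of the block, against 2.18% and 3.63% of the rest (replicates 2 and 4). With DMSO they covered 1.88% and 35.1% of the block, against 5.31% and 23.5% of the rest. The DMSO library of replicate 4 stood far above the others, in the block and outside it. At a log2 fold over 1, the study's filter, the shares of the block were 1.75% and 1.76% with A-485 and 1.27% and 11.5% with DMSO. At a log2 fold over 2 they were 0.697% and 0.23% with A-485 and 0.70% and 0.763% with DMSO.

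**Figure D1:**
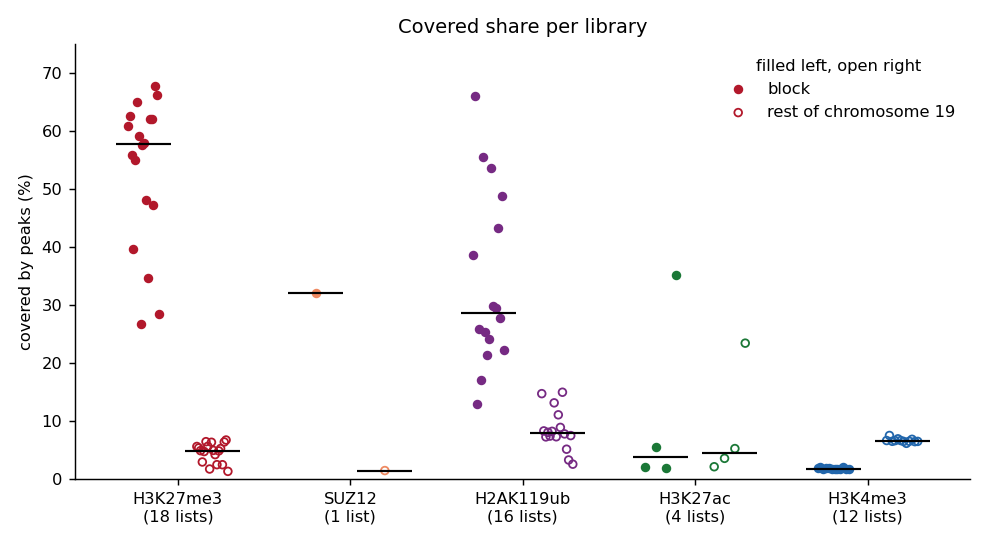
Percent of bases under deposited peaks in the block (filled, left) and on the rest of chromosome 19 (open, right) for each list, by mark, with a line at the median. H3K27me3 lists sit at 26.7% to 67.8% in the block and at 1.39% to 6.79% outside it, while H3K4me3 lists sit at 1.73% to 2.20% in the block and at 6.21% to 7.57% outside it.

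By number, 9986 of the members were H3K27me3 peaks (244 to 979 per list), 9926 H2AK119ub peaks (396 to 899), 956 H3K27ac peaks, 524 SUZ12 peaks and 275 H3K4me3 peaks (21 to 26). Of all members, 17200 had a log2 fold over input above 1, the study's filter. The Polycomb peaks were many and mostly short, with a median width of 1100 bp for H3K27me3 and 1000 bp for H2AK119ub, but the widest joined up over gene bodies. The widest H3K27me3 peak spanned 83000 bp inside ZNF536 (chr19:30261301-30344300, 10095 ChIP and 1182 input reads, DMSO replicate 2). The widest H2AK119ub peak spanned 58300 bp over the ZNF536 start (chr19:30198701-30257000, 4746 ChIP and 541 input reads, shDPPA2 DOX replicate 3). The widest H3K4me3 peaks, of 7200 to 7700 bp, also lay over the ZNF536 start, and the widest SUZ12 peak, of 12000 bp, lay over the TSHZ3 start (chr19:31347301-31359300). For H3K27ac the 3 widest peaks, of 17800 to 17900 bp, all came from the DMSO replicate 4 list.

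The lists of a mark differed in how much of the block they shared. Of all bases of the block, 9.36% lay under a peak in all 18 H3K27me3 lists and 75.9% in at least 1 of them. The shared portion was 2.76% for H2AK119ub (16 lists, 79.2% in at least 1) and 1.40% for H3K4me3 (12 lists, 2.62% in at least 1). Between marks of the same line and treatment, a median of 73.1% of the H2AK119ub bases lay under H3K27me3 (43.6% to 83.9% over 36 pairs of lists), where H3K27me3 covered a median of 57.8% of the whole block. In the other direction, a median of 43.2% of the H3K27me3 bases lay under H2AK119ub, where H2AK119ub covered 28.6%. The SUZ12 bases lay under H3K27me3 by 53.3%, 95.2% and 96.3% for the 3 DMSO lists, the lowest for replicate 4. Of the H3K4me3 bases, a median of 78.8% lay under H2AK119ub and 44.6% under H3K27me3, beside 27.7% and 56.7% of the whole block under these marks.

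Set against the autosomes cut into stretches of 3 Mb, the block had the widest mean coverage by H3K27me3 (53.2%, 938 stretches, median 4.82%), ahead of chr5:1500001-4500000 with 50.0%. It was first in 12 of 18 lists and never lower than the third. It was also the first for SUZ12 (32.2%, 893 stretches, next 24.99%). For H2AK119ub it came after chr19:37500001-40500000, with 33.9% against 42.9% (941 stretches), and its place ranged from the first to the tenth over 16 lists. For H3K27ac it was 19 of 937 stretches (11.2%), and for H3K4me3 465 of 935, where its 1.88% equalled the median stretch. These ranks use all deposited peaks, and over the 4 H3K27ac lists the place ranged from 19 to 263.

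Along the block, Polycomb coverage formed a left arm and a right arm around a gap, and the active promoters lay in the gap. From 28.8 to 29.6 Mb, a stretch that contains UQCRFS1 and ends at VSTM2B, mean H3K27me3 coverage per 100 kb bin was 63.9% to 81.7%. Over the 5 bins from 29.6 to 30.1 Mb, which hold POP4, PLEKHF1, C19orf12, CCNE1 and URI1, it was 0.622% to 2.58%. Over the 5 bins from 30.2 to 30.7 Mb, the body of ZNF536, it was 84.7% to 89.7%, and from there to the right border 43.1% to 81.6%, highest in the bin of the TSHZ3 start. SUZ12 followed the same outline in its 1 library, with 1.5% to 6.1% in the gap and 54.9% to 76.0% over ZNF536.

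H2AK119ub did not share the gap. Its mean coverage there was 12.8% to 49.4% per bin, highest in the bin of the C19orf12 start, and its 2 highest bins of the block were those of the ZNF536 start (80.9%) and the bin right of it (75.2%). H3K27ac was highest in the gap, at 31.7% to 33.2% in the 3 bins from 29.6 to 29.9 Mb, values that rest largely on the DMSO replicate 4 list. H3K4me3 was highest in the bin of the CCNE1 start, at 9.69%, and 0 in all lists in 16 of 30 bins.

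**Figure D2:**
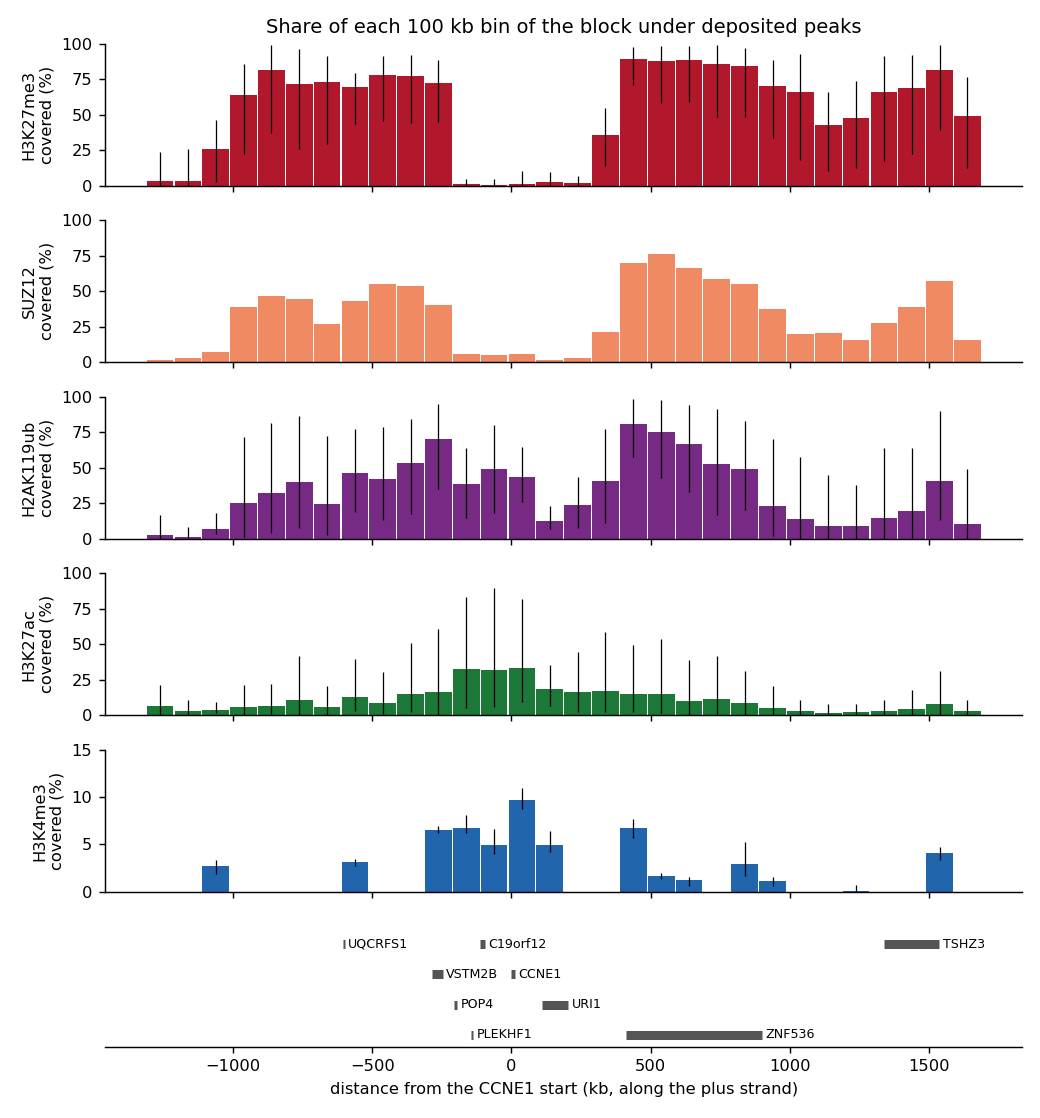
Mean share of each 100 kb bin under deposited peaks (bars) with the lowest and highest list (black lines) for each mark, over distance from the CCNE1 start in kb along the plus strand, with gene bodies drawn at the bottom. H3K27me3 and SUZ12 leave the 5 bins around CCNE1 nearly free (0.622% to 2.58% and 1.5% to 6.1%), where H2AK119ub stays at 12.8% to 49.4%.

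The borders of the rule did not coincide with those of the Polycomb coverage. In the first Mb inside the left border the median H3K27me3 coverage was 60.2%, against 0.430% in the Mb outside it. In the last Mb inside the right border it was 72.0%, against 63.4% in the Mb outside. Coverage was 36.04% in the first window of 500 kb inside the left border and 73.8% in the next. Beyond the right border it was 64.6% at chr19:31500001-32000000 and 50.0% at chr19:32000001-32500000, and it ended with 11.0% at chr19:32500001-33000000 and 0.0322% at chr19:33000001-33500000. SUZ12 also went on, with 29.0% in the right flank and 0.670% in the left.

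The promoters of the block are grouped here by H3K27me3. Since the lists come from bulk cells, marks at the same promoter need not share a chromosome copy. The bivalent kind comprised VSTM2B, which encodes a membrane protein of the immunoglobulin family, ZNF536, a zinc finger factor known from neural cells, and TSHZ3, a teashirt zinc finger homeobox factor known from mouse ureter and nervous system development. Each of the 3 windows was marked by H3K27me3 in 18 of 18 lists, by SUZ12 in its 1 list, by H2AK119ub in 16 of 16 and by H3K4me3 in 12 of 12. H3K27me3 covered a median of 3001 bp of the 3001 bp window at VSTM2B (lowest list 1994), 2946 bp at ZNF536 (lowest 1691) and 3001 bp at TSHZ3 (lowest 1465). H3K4me3 covered a median of 3001 bp, 2746 bp and 2586 bp of the same windows. H3K27ac marked these promoters in 2 (VSTM2B), 1 (ZNF536) and 2 (TSHZ3) of 4 lists, and the DMSO replicate 4 list was among them each time.

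The active kind comprised UQCRFS1, the Rieske iron-sulfur subunit of mitochondrial complex III, POP4, a protein subunit of RNase P, PLEKHF1, an endosomal protein with a FYVE domain, C19orf12, a mitochondrial protein, and CCNE1, which activates CDK2 for entry into S phase. H3K4me3 marked all 5 in 12 of 12 lists and H3K27ac in 4 of 4. Of 18 H3K27me3 lists, 1 marked CCNE1 (A-485 replicate 4, 1100 bp) and none the other 4. UQCRFS1 is the only one of the 5 that lies outside the gap, within the left arm. H2AK119ub separated them further, with 16 of 16 lists at PLEKHF1 and CCNE1, 11 at C19orf12 and 6 each at UQCRFS1 and POP4. SUZ12 marked PLEKHF1 and CCNE1, over 442 bp and 1400 bp of the window.

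URI1 encodes a prefoldin-like protein that binds RNA polymerase subunits. Its start in the annotation (29923644) was marked by H3K4me3 in 0 of 12 lists and by H3K27ac in 2 of 4. A start further into the gene (29942239), added after the values of the first were seen, was marked by H3K4me3 in 12 of 12, H3K27ac in 4 of 4 and H2AK119ub in 16 of 16 lists, and by H3K27me3 in none of 18. SUZ12 marked neither start. The second start thus had the marks of the active kind.

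**Figure D3:**
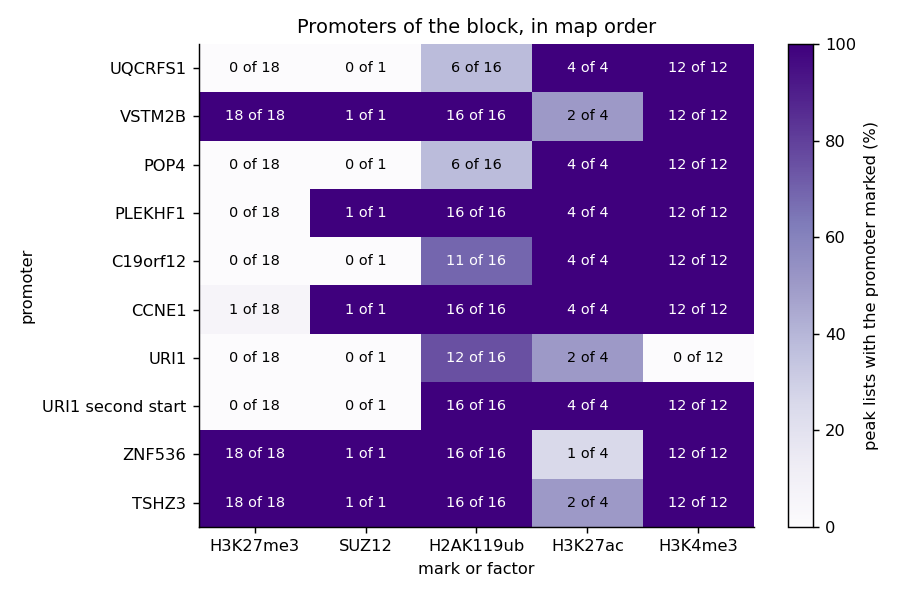
Share of peak lists (color, in percent) in which peaks covered at least 300 bp of the promoter window of each gene, with the count in each cell, for each mark. VSTM2B, ZNF536 and TSHZ3 are marked by H3K27me3 in 18 of 18 lists, and the other promoters in 0 or 1.

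The same reading was made for genes of related function elsewhere in the genome, the partners and regulators of cyclin E (CCNE2, CDK2, CDKN1A, CDKN1B, FBXW7, RB1, RBL1, RBL2, E2F1, E2F2, E2F3, CDC25A and SKP2) and the teashirt genes TSHZ1 and TSHZ2. H3K4me3 marked 14 of these 15 promoters in all 12 lists, and CDKN1A, which encodes a cyclin-dependent kinase inhibitor, in 4. H3K27me3 marked only TSHZ2, in 18 of 18 lists, where SUZ12 and H2AK119ub (16 of 16) were also present. TSHZ2 thus had the marks of TSHZ3, whereas TSHZ1 had H3K4me3 in 12 of 12 lists and no H3K27me3. H2AK119ub was in all 16 lists at E2F1, an S phase transcription factor, besides TSHZ2, and in 9 at CCNE2, the gene of cyclin E2.

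The input reads under the peaks served as the check of copy number that the definition of the block names. A list gives input counts only under its peaks, so the density (input reads per kb of peak) depends on where the peaks lie. Over the block it was 1.27 ± 0.102 times that of the rest of chromosome 19 (median and SD over 8 inputs), and the ratio was above 1 in 46 of 51 lists. By mark, the ratio was 1.56 to 1.92 (median 1.70) in the H3K4me3 lists, 1.13 to 1.78 (1.59) for H3K27ac, 0.989 to 1.60 (1.28) for H3K27me3, 0.924 to 1.32 (1.04) for H2AK119ub and 1.12 for SUZ12. The median over inputs was above 1 in every setting tried, from 1.21 with peaks of at least 1 kb to 1.60 as the median over peaks. The rest of the chromosome includes chr19:37500001-40500000, where input density in the H2AK119ub lists was 2.62 times that of the median 3 Mb stretch. Against all other autosomes the medians were 1.65 (H3K4me3), 1.77 (H3K27ac), 1.55 (H3K27me3), 1.39 (H2AK119ub) and 1.77 (SUZ12). The part of that stretch in the ratios by mark was not tested.

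The same inputs gave different ratios under different marks. The shDPPA2 DOX input gave 1.87 to 1.92 under H3K4me3 peaks and 1.05 to 1.19 under H2AK119ub peaks. At peaks with the same borders in lists of different inputs, the block over the rest of the chromosome, relative to the shDPPA2 H2O input, ranged from 0.857 in the shDPPA4 H2O input (31 shared peaks of the block, 319 against 317 reads) to 1.503 in the parental A-485 input (36 shared peaks, 597 against 275 reads). These comparisons rest on 11 to 36 shared peaks of the block per input.

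Along the chromosome, the raised input was not confined to the block. Relative to the median 500 kb window of all chromosomes, input density in the windows of the block was 1.24 to 2.39 under H3K4me3 peaks and 1.78 to 2.46 under H3K27me3 peaks. It was still raised at chr19:32500001-33000000, with 1.98 to 2.33 over the 5 kinds of list. In the next window, where the H3K27me3 lists held only 4 peaks in all and the SUZ12 list 1, it was 0.495 to 0.797. Over the whole block the input density was 1.80 to 2.27 times that of the median stretch of 3 Mb. For windows and stretches, input reads and peak lengths were summed over the lists of a mark without scaling for the size of each input. Under H3K27me3 peaks of the block it was 4.53 to 6.34 reads per kb in knockdown lists and 9.71 to 11.9 in parental lists. A relative value thus also depends on which lists hold peaks there. Among stretches with at least 20 kb of peaks per list, chr14:34500001-37500000 was the highest for H3K27me3 lists with 4.84, at an H3K27me3 coverage of 20.8%. Across stretches, Spearman's rho between input density and coverage was 0.217 for H3K27me3, 0.245 for H2AK119ub and 0.463 for H3K4me3. The stretches share their libraries and genome composition, so these values are descriptions over 935 to 941 stretches. The part of copy number in the coverage by peaks was not tested.

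**Figure D4:**
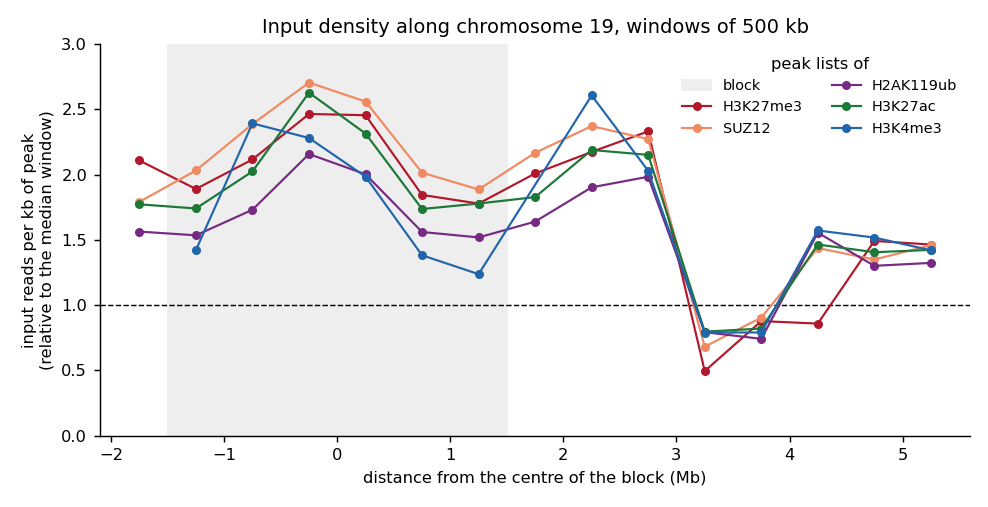
Input reads per kb of peak in 500 kb windows, relative to the median window of all chromosomes, for the peak lists of each mark, over distance from the centre of the block in Mb (block shaded, dashed line at 1). All 5 lines fall between the third and the fourth window right of the block, which have 1.98 to 2.33 and 0.495 to 0.797. The fourth holds only 4 peaks over the H3K27me3 lists and 1 in the SUZ12 list.

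Changes with treatment were tested on ChIP reads in peaks past the study's filter, summed in merged regions and in 500 kb windows over the whole genome, with edgeR's quasi-likelihood test and the replicate number as a block. Calls needed an adjusted p (Benjamini-Hochberg, over all features) below 0.05 and a log2 fold change of 0.5 or more in size. Values per library are CPM, the reads of a feature scaled to the library's total in peaks after TMM normalisation. Since each library's reads were counted in its own peaks, a wider call of peaks adds reads.

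H2AK119ub was called higher with DOX in 4 of the 6 windows of the block, calls that depended on the fit and on replicate 3. In the window with the TSHZ3 start (the last 500 kb of the block) the DOX libraries had 264, 1425 and 3298 CPM (lowest, median and highest of 6) and the H2O libraries 238, 400 and 864 CPM. In the window with the ZNF536 start (chr19:30000001-30500000) DOX libraries had 2658, 5086 and 7537 CPM and H2O libraries 2241, 3456 and 4807 CPM. In the window with UQCRFS1 (chr19:29000001-29500000) DOX libraries had 1261, 3062 and 6714 CPM and H2O libraries 813, 1686 and 2723 CPM. The 3 highest values in each window were those of the DOX libraries of replicate 3, and the DOX libraries of replicate 1 lay among or below the H2O libraries of replicate 3.

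Of the 6 windows, 4 were called higher with DOX and 0 lower, where 4.13% of all 4460 windows were called (176 higher and 8 lower). The log2 fold changes were 0.84 in the UQCRFS1 window (SE 0.165, adjusted p = 0.0345), 0.51 in the ZNF536 window (SE 0.113, adjusted p = 0.0424), 0.85 in the next window, which holds the right part of ZNF536 (SE 0.193, adjusted p = 0.0431), and 1.30 in the TSHZ3 window (SE 0.285, adjusted p = 0.0416). The first window of the block (1.00, SE 0.353, adjusted p = 0.115) and chr19:29500001-30000000, which contains VSTM2B and the gap with CCNE1 (0.36, SE 0.109, adjusted p = 0.0800), were not called. Outside the block, chr19:31500001-32000000 changed by 2.26 (SE 0.393, adjusted p = 0.0261), and the window left of the block was also called, on a mean of 87.8 reads. All 6 windows had an unadjusted p under 0.05, beside 27.5% of all windows, and DESeq2 called 4, beside 8.48%. Without the replicate block or without TMM 0 of 6 were called, and with peaks at a log2 fold over 2 the ZNF536 window was lower with DOX (−1.37, adjusted p = 0.0157).

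These calls rested on replicate 3. In its 3 pairs of libraries (DOX and H2O of the same line) all 18 window values were higher with DOX, by a median of 1.34 on the log2 scale, and in replicate 1 it was 15 of 18, by a median of 0.32. In the TSHZ3 window the replicate 3 pairs were 3298 CPM in DOX and 744 CPM in H2O for shDPPA2, 2754 CPM and 518 CPM for shDPPA4, and 2318 CPM and 864 CPM for shDPPA2+4. Without the 3 DOX libraries of replicate 3, 0 of 6 windows were called, and 5 of 6 log2 fold changes stayed positive (median 0.34). Leaving out any single library of replicate 3, the shDPPA2 H2O library of replicate 1 or the shDPPA2+4 DOX library of replicate 1 also left 0 called, and 1 was left without the shDPPA2+4 H2O library of replicate 1.

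Depth, as reads in all peaks, and peak width moved with this result. The ChIP reads in all peaks were 4259966 to 5379670 in the DOX libraries of replicate 3 and 1437155 to 1764088 in their H2O libraries, and in replicate 1 they were 2079741 to 4049205 with DOX and 2195880 to 3576312 with H2O. The covered share of the TSHZ3 window was 3.00%, 23.2% and 45.8% with DOX (lowest, median and highest) and 2.78%, 5.05% and 9.86% with H2O. The density of reads per covered kb was higher with DOX in only 2 or 3 of 6 pairs in each window. In the ZNF536 window it was 11.7, 19.9 and 24.7 CPM per kb with DOX and 10.6, 19.2 and 21.7 CPM per kb with H2O. The part of depth and of peak width in the calls was not tested. The block also took a larger share of a library's ChIP reads with DOX in 6 of 6 pairs, by 0.197 to 0.848 percentage points, and its coverage relative to the rest of the chromosome was higher in 6 of 6.

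**Figure D5:**
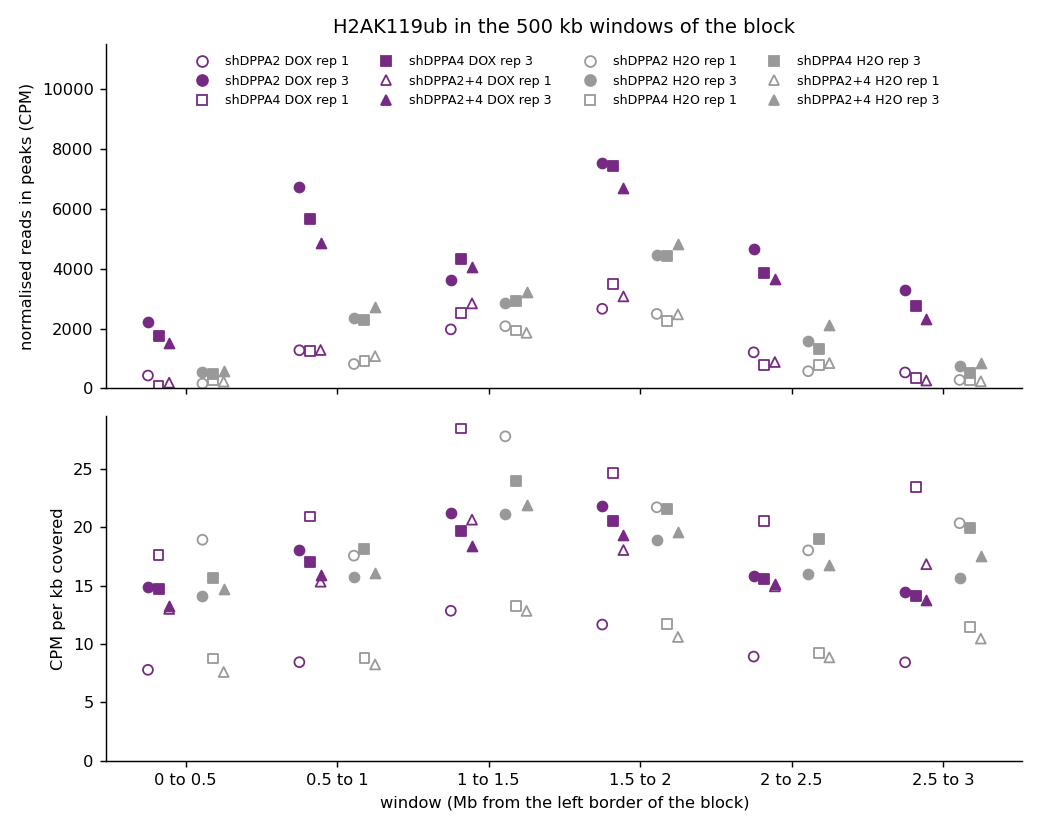
H2AK119ub in the 6 windows of the block, as CPM (top) and as CPM per covered kb (bottom), for each DOX library (purple, left) and H2O library (grey, right), with open symbols for replicate 1 and filled for replicate 3. The filled purple symbols are the highest in each window of the top panel, and in the bottom panel DOX and H2O libraries overlap in every window.

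In the merged regions, 1 of 39 was called, where 0.0649% of 6161 regions were called. The block held 483 merged regions, and most were not tested, for want of a peak past the filter in every library or of reads. This region (chr19:29494701-29513400) lies between UQCRFS1 and VSTM2B and holds no start of a protein-coding gene. It had 129, 440 and 882 CPM in DOX libraries and 52.2, 167 and 231 CPM in H2O libraries, higher with DOX by 1.39 on the log2 scale (SE 0.193, adjusted p = 0.0397). The groups overlapped in range, and the call of this region was lost without any single library of replicate 3, the shDPPA2 H2O library of replicate 1 or the shDPPA2+4 DOX library of replicate 1. Of the 39 regions, 37 had a positive log2 fold change, with a median of 0.85 beside −0.01 over all regions tested, 35 had an unadjusted p under 0.05 (22.4% of all regions), and DESeq2 called 24 (6.57% of all). The regions share the same libraries, so these counts are not of separate observations. Without the 3 DOX libraries of replicate 3 no region was called (median 0.27). The count of called regions became 17 without the shDPPA2 DOX library of replicate 1, 19 without that of shDPPA4 DOX, 20 without that of shDPPA4 H2O and 3 without that of shDPPA2+4 H2O. The shares of all regions called in these fits are not given here, so a rise over the whole genome cannot be told apart.

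At the regions that hold gene starts, H2AK119ub did not pass the test. The PLEKHF1 region had 531, 820 and 1002 CPM with DOX and 457, 503 and 578 CPM with H2O (log2 fold change 0.60, SE 0.131, adjusted p = 0.0820). The ZNF536 region (chr19:30196601-30261100) had 1432, 2230 and 3720 CPM with DOX and 1377, 1780 and 2028 CPM with H2O (0.36, SE 0.144, adjusted p = 0.186). The DOX values reached higher at both promoters and overlapped those of H2O. The VSTM2B region changed by 0.39 (adjusted p = 0.156) and the TSHZ3 region by 0.36 (adjusted p = 0.180), and no H2AK119ub region at CCNE1 was among those tested, which needed a peak past the filter in all 12 libraries.

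Line by line, none of the 6 windows was called in shDPPA2 (0% of all windows called), shDPPA4 (0%) or shDPPA2+4 (0.0224%). The unadjusted p was under 0.05 in 5 windows in shDPPA2 (24.3% of all windows), 5 in shDPPA4 (6.52%) and 1 in shDPPA2+4 (3.25%). The median log2 fold changes of the lines, in the same order, were 1.23, 0.74 and 0.50. The difference between lines, tested as an interaction, was called in none of the 6 windows, beside 0.0224% of all windows, and its unadjusted p was under 0.05 in 0, beside 3.27%. DESeq2 was not run line by line.

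H3K27me3 covered more of the block with DOX in 5 of 6 pairs, but relative to the rest of the chromosome its coverage was higher with DOX in 1 of 6 (mean difference of the ratio −1.74). In shDPPA2 the covered share of the block was 60.8% and 62.6% with DOX, against 55.8% and 39.7% with H2O (replicates 1 and 3). In shDPPA4 it was 55.1% and 65.0% with DOX, against 59.2% and 26.7% with H2O, and in shDPPA2+4 57.6% and 57.9% with DOX, against 48.2% and 34.7% with H2O. The 3 lowest values were those of the H2O libraries of replicate 3. In replicate 3 the DOX libraries held 6129654 to 10727937 ChIP reads in peaks and the H2O libraries 1098427 to 2271165, and the part of depth was not tested. The share of ChIP reads in the block was higher with DOX in 1 of 6 pairs (mean 1.07 ± 0.168% with DOX and 1.29 ± 0.400% with H2O, SD, n = 6 each), and reads per covered kb in 1 of 6 in every window. None of the 6 windows was called by edgeR (0.0686% of all windows), 1 had an unadjusted p under 0.05 (26.2% of all) and DESeq2 called 0 (15% of all), with a median log2 fold change of −0.16.

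Of the H3K27me3 regions, 0 of 48 were called, beside 0% of 14942, with 7 at an unadjusted p under 0.05 (22.5% of all regions) and 2 called by DESeq2 (9.84% of all). The VSTM2B region (chr19:29514301-29534700) had 158, 168 and 205 CPM with DOX and 195, 255 and 418 CPM with H2O, a difference of −0.58 on the log2 scale (SE 0.170, adjusted p = 0.0914), and DESeq2 called it. The groups overlapped only between 195 and 205 CPM. The ZNF536 region, which spans 138000 bp from chr19:30219001-30357000, had 1308, 1532 and 1835 CPM with DOX and 1378, 1956 and 3059 CPM with H2O (−0.33, SE 0.136, adjusted p = 0.170). At TSHZ3 the log2 fold change was −0.06 (SE 0.106, adjusted p = 0.779).

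H3K4me3 at the promoters of the block changed little with DOX. At CCNE1 (chr19:29809401-29814400) the DOX libraries had 138, 142 and 151 CPM and the H2O libraries 122, 130 and 144 CPM. The log2 fold change of 0.13 (SE 0.032, adjusted p = 0.0214) was under the 0.5 needed for a call. The groups overlapped. At the second URI1 start (chr19:29940601-29946600) the DOX libraries had 127, 136 and 147.4 CPM and the H2O libraries 143, 146 and 153 CPM (−0.12, SE 0.038, adjusted p = 0.0604). The ZNF536 promoter had 176, 184 and 220 CPM with DOX and 165, 182 and 219 CPM with H2O (0.03, adjusted p = 0.649). The other promoters lay between −0.07 (POP4, adjusted p = 0.145) and 0.12 (TSHZ3, adjusted p = 0.223).

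Of 17 H3K4me3 regions, edgeR called 0, beside 0.558% of 22060, and 5 had an unadjusted p under 0.05, beside 27.2% of all. Of 6 windows it called 0, beside 0.171% of all, and 1 had an unadjusted p under 0.05, beside 31.2%. DESeq2 called 0 regions (0.186% of all) and 0 windows (0% of all). The covered share of the block was higher with DOX in 6 of 6 pairs, but by only 0.0867 to 0.293 percentage points.

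With A-485, H2AK119ub was higher than with DMSO in each window of the block in both replicates, but no window was called. In the ZNF536 window the A-485 libraries had 7804 and 9344 CPM and the DMSO libraries 5652 and 6019 CPM. In the UQCRFS1 window they had 5576 and 6151 CPM, against 2850 and 4239 CPM with DMSO. Neither window's groups overlapped, with 2 libraries each. The log2 fold changes of the 6 windows were 0.30 to 0.74, 4 had an unadjusted p under 0.05 (2.14% of all), edgeR called 0 (0% of 3877 windows) and DESeq2 called 5 (0.671% of all). Reads per covered kb were higher with A-485 in 1 of 2 pairs in every window. The windows count only peaks past the filter. It cut the covered share of the block from 22.2% to 8.67% in the DMSO library of replicate 4, which held 566116 reads in peaks. In the A-485 library of replicate 4 the share went from 27.8% to 19.2%. With all deposited peaks the block took 2.62% and 3.39% of ChIP reads with A-485 and 2.18% and 3.10% with DMSO (replicates 3 and 4). The part of the filter was not tested.

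Of 103 H2AK119ub regions, 82 had a positive log2 fold change with A-485 (median 0.41, beside 0.01 over all regions), 10 had an unadjusted p under 0.05 (3.12% of all), and none was called by edgeR (0% of 4515) or DESeq2 (0%). The VSTM2B region had 3776 and 4778 CPM with A-485 and 1863 and 3409 CPM with DMSO (0.74, SE 0.286, adjusted p = 0.919). At CCNE1 the values were 279 and 390 CPM with A-485 and 216 and 457 CPM with DMSO (0.08, SE 0.376, adjusted p = 0.981). Without the DMSO library of replicate 3, 11 of 115 regions were called, beside 0.673% of 4754. That fit had no replicate block and 1 residual degree of freedom, and the lone DMSO library was assumed to vary like those with A-485.

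For H3K27me3 no difference with A-485 was detectable at this depth. Of 49 regions 0 were called (0% of 8822), of 6 windows 0 (0% of 4244), none had an unadjusted p under 0.05 (3.19% of all regions and 1.06% of all windows), and DESeq2 called 0 regions (0.0113% of all) and 0 windows (0%). The ZNF536 region had 5152, 6234 and 7561 CPM with A-485 and 4810, 5421 and 7877 CPM with DMSO (0.08, SE 0.107, adjusted p = 0.889). Window values were higher with A-485 in all 6 windows in replicates 2 and 3 and in none in replicate 4, whose DMSO library covered 28.4% of the block (66.3% and 67.8% in the other DMSO libraries) and held 590598 ChIP reads in peaks. The part of depth was not tested.

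H3K27ac, the mark that A-485 acts on, could be compared at 8 of the 357 merged regions of the block. A region needed a peak past the filter in every library, so a site whose peak was lost with A-485 could not enter this test. CCNE1 had 290 and 479 CPM with A-485 and 265 and 324 CPM with DMSO (0.35, SE 0.344, adjusted p = 0.920), and C19orf12 had 378 and 459 CPM with A-485 and 383 and 572 CPM with DMSO (−0.17, SE 0.338, adjusted p = 0.965). A region right of CCNE1 (chr19:29835601-29847100) had 43.3 and 107 CPM with A-485 and 108 and 411 CPM with DMSO (−1.53, SE 0.715, adjusted p = 0.697). These are shares of the reads in peaks of a library and would not show a loss common to all peaks. None of the 8 regions was called (0% of 8967) and none of 6 windows (0.0469%), with 0 at an unadjusted p under 0.05 (7.57% of all regions and 8.33% of all windows) and 0 by DESeq2 (0.123% and 2.35%). The window values were higher with A-485 in 6 of 6 windows in replicate 2 and in 3 of 6 in replicate 4, whose inputs or labels may be exchanged.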

How the data were processed

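ChIP-Rx-seq peak lists of NCI-H661 cells were analysed (51 lists, and 8 inputs through the lists only). The authors trimmed reads with Trim Galore 0.6.6, aligned them to hg38 with BWA 0.7.13 and handled them with SAMtools 1.9, Picard 2.6.0 and deepTools 3.5.0 (per the labels), and called domains in each library against an input with EPIC2 in bins of 100 bp, without pooling replicates. For SUZ12 the study's methods name MACS2, but its columns are those of EPIC2. Each deposited list gives ChIP and input read counts, a log2 fold change over input and a p-value with its FDR, under 0.05. The deposited counts were not scaled by the mouse spike-in, and the ENCODE blacklist was not applied here.

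The members, gene lists and tests were chosen with earlier results of these data known. Coverage was computed from all deposited peaks. For the tests, ChIP counts of peaks with a log2 fold over 1 and an FDR under 0.05 were summed in merged regions (a peak in every library) and in windows of 500 kb, at a mean of at least 10 reads, and tested with edgeR 4.0.16 (R 4.3.3) after TMM, with the replicate number as a block as in the study's design. In the knockdown experiment 17 of 28 merged H3K4me3 regions of the block were tested, 48 of 130 for H3K27me3 and 39 of 483 for H2AK119ub. In the inhibitor experiment it was 8 of 357 for H3K27ac, 103 of 695 for H2AK119ub and 49 of 204 for H3K27me3. DESeq2 1.42.0 was an alternative. p-values were adjusted by the Benjamini-Hochberg method over all features of the genome. On simulated counts with 200 changes of 1.5 on the log2 scale the fits recovered 200 in each knockdown comparison and 165 to 196 in the inhibitor comparisons. Each fit also made 5 to 14 false calls. Every simulated feature had the same spread and no replicate effect was added, so these numbers do not show the power in the real libraries. Same-numbered samples deviated together, with correlations of 0.30 to 0.54 over regions, except for H3K27me3 in shDPPA2 (0.15) and shDPPA4 (−0.09). No pair of lists of 1 mark looked like 1 library deposited again (at most 18.5% of ChIP counts identical at identical borders).

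Named genes are all protein-coding genes with a start in the block. Named regions are those at such starts, those called, and the 3 with the highest counts and 3 widest peaks per mark. Other steps used Python 3.11.15, pandas 2.3.3, numpy 2.4.6 and matplotlib 3.10.9. Alternatives were other peak filters, no TMM, no block, no count minimum, DESeq2, 100 kb windows and leaving out libraries. A marker gene of the fixed list is not reported here.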

Additional observations from a re-analysis of the deposited data

Results flagged for a closer look

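SUZ12 was in 1 library only and entered no comparison of treatments. Its peaks covered 32.17% of the block, against 1.52% of the rest of chromosome 19.

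The input density was also raised outside the block, where no comparison was made. At chr19:32500001-33000000 it was 2.029 times the median window in the H3K4me3 lists, and in the next window 0.79 times. Groups held 1 to 3 samples per mark, so the check for a sample far from its group was not made.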

How the results depend on the processing

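The peak counts depend on what was called in each library, and 2 or 3 libraries per group limit what could be called. Without the replicate block, no H2AK119ub region (0) and no window (0) of the block was called with DOX, against 1 and 4 with it. The block changed no other call. Without TMM both counts were also 0, and at a log2 fold over 2 regions numbered 0 and windows 1, where the ZNF536 window (chr19:30000001-30500000) was lower with DOX (−1.37, adjusted p = 0.0157). Under that filter the next window (chr19:30500001-31000000) also turned (−0.37, adjusted p = 0.394). H2AK119ub regions numbered 24 with DESeq2 (6.57% of all regions called) and 29 with all deposited peaks (2.47% of all). Of 30 windows of 100 kb 13 were called (4.67% of all). Without the DOX libraries of replicate 3 both were 0. DESeq2 called 2 H3K27me3 regions with DOX and 5 H2AK119ub windows with A-485. Over all windows of the genome, H2AK119ub calls numbered 184 (95.7% higher with DOX), 35 without TMM (91.4%), 378 with DESeq2 (69.3%) and 0 without the block. The cause of these differences was not tested.

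Leaving out replicates or single libraries gave 0 to 15 H3K27me3 regions and 0 to 2 windows with DOX, 0 to 51 H2AK119ub regions and 0 to 5 windows with DOX, and 0 to 11 H2AK119ub regions with A-485. In the knockdown comparisons, leaving out a replicate number left a single library per line and treatment. Those fits had line and treatment as separate terms, so the different lines served as replicates of DOX. The highest counts with DOX came without replicate 1, where H3K27me3 had 15 of 51 regions (30.1% of all regions called) and 2 of 6 windows (43.6%) and H2AK119ub 51 of 65 regions (29.7%) and 5 of 6 windows (44.3%). The highest with A-485 came without the DMSO library of replicate 3 (0.673% of all, no block). The H3K27me3 regions became 1 without shDPPA4 DOX replicate 1 and 3 without shDPPA4 H2O replicate 1, fits whose shares of all regions are not given here. All other counts stayed at 0. In the inhibitor comparisons with 2 replicates, leaving out a number leaves no residual spread, so those fits gave no value.

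The input density ratio of 1.27 became 1.60 as the median over peaks, 1.52 against all other autosomes and 1.39 with a log2 fold over 1. At a log2 fold over 2 the median covered share fell to 1.65% for H3K4me3 (1.84% with all peaks) and 24.7% for H3K27me3 (57.8%). It fell to 3.40% for H2AK119ub (28.6%) and 7.33% for SUZ12 (32.2%, and 27.3% at a log2 fold over 1). In the H3K27ac DMSO list of replicate 4 the share fell from 35.1% to 0.763%.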
